A study of Bos taurus with 6 samples.

Results

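STK3, also called MST2, codes for a serine/threonine kinase at the top of the Hippo pathway. Its circular RNAs (circRNAs, closed RNAs made when a later splice site is joined back to an earlier one) were examined in subcutaneous fat of Qinchuan cattle. Of 14274 deposited circRNAs, 7 are annotated to STK3, all of them to this gene alone (ENSBTAG00000026234). They held 519 of the 237621 junction reads, which are reads across the back-splice join. STK3 was chosen on the difference of its main circle between the ages. For that reason its values between ages are given as a description, with no test.

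The series has 3 calf libraries from fat of 6 months and 3 adult libraries from fat of 24 months. Per the labels, the tissue was collected at a local slaughterhouse and frozen, and no treatment or genotype is named. The labels do not say that each library is a different animal, so p-values measure the spread between these libraries. In bulk tissue such as this, fewer cells of a type and less RNA per cell cannot be told apart.

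In the Hippo pathway, STK3 and its paralog STK4, with the scaffold SAV1, activate the kinases LATS1 and LATS2. These, with MOB1 proteins, phosphorylate the coactivators YAP1 and WWTR1 (TAZ) and keep them out of the nucleus, where they otherwise act with TEAD factors. In fat, the pathway is known for its link to fat cell formation, since TAZ can restrain the fat cell regulator PPARG.

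The 7 STK3 circles lie on the plus strand of chromosome 14 within 185263 bases, but 1 of them, novel_circ_0002653, held 493 of the 519 reads (94.99%). It spans 67763757 to 67764595, from the start of annotated exon 5 to the end of annotated exon 6. The genome build was not given in the sources used here. Exon 5 is 165 bases long, exon 6 is 168 and the intron between them 505. The deposited spliced length of 838 equals the whole span, so it counts the intron as part of the circle. The same equality held for 1091 of the 7744 circRNAs that list exons and introns (14.1%). The 2 exons alone add up to 333 bases, which would be 111 codons if read in frame. Whether the circle keeps the intron was not tested.

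**Figure D1:**
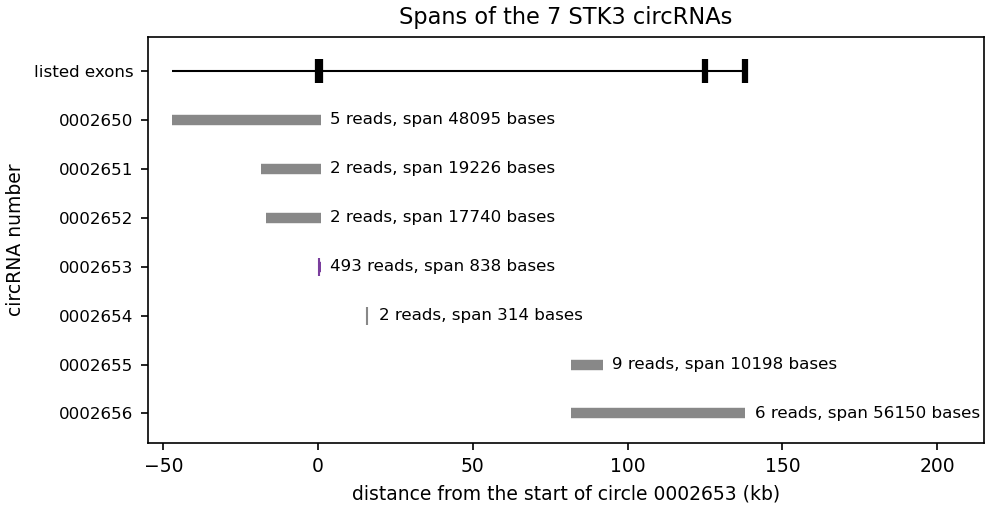
Spans of the 7 STK3 circRNAs as distance in kb from the start of novel_circ_0002653, 1 bar per circle, with its junction reads over all 6 libraries and its span in bases; black marks are the exons that the deposited annotation lists. Almost all reads, 493, belong to the 838-base circle, and 4 circles end at the same place.

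Circles of STK3 shared their ends. A set of 4 stop at the end of exon 6, and the main circle held 493 of the 502 reads of that set. The other 3 begin further upstream. Circle novel_circ_0002650 begins 48095 bases before that end and was read 5 times, in calf 3 only. Circles novel_circ_0002651 (2 reads, adult 2) and novel_circ_0002652 (2 reads, calf 1) begin inside annotated intron 4. A further 2 circles start at 67845613, where intron 6 ends. The shorter of them, novel_circ_0002655, ends 10198 bases on and was read 4 times in calf 2, 3 times in adult 1 and 2 times in adult 3. The longer, novel_circ_0002656, spans 56150 bases to the end of exon 10, with 6 reads, all in adult 3. The last, novel_circ_0002654, lies wholly inside intron 6 and was read 2 times, in calf 2.

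None of the 6 minor circles was read in more than 3 libraries, and together they gave calves 1 to 3 only 2, 6 and 5 reads, and adults 1 to 3 only 3, 2 and 8. The smallest nonzero count in the table is 2, so single reads stand at 0. A true count of 0 allows up to 3 reads, or 63.4 to 84.2 CPM (junction reads scaled to the library's total of junction reads), counting error only. Since a printed 0 can hide a single read, its limit is higher than this. At this depth no age difference of a minor circle was detectable. Among the 313 genes with at least 7 circRNAs of their own, the median share of the top circle was 40.0% of the gene's reads. Of these genes, 1 had a higher share than STK3. This is a description, since STK3 was picked for its main circle.

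The main circle was read in every library. Calves 1 to 3 gave 27, 37 and 38 junction reads, and adults 1 to 3 gave 149, 115 and 127. Scaled to depth, these are 725, 935 and 1067 CPM for the calves, against 3927, 2431 and 3177 CPM for the adults. The ages did not overlap, and the lowest adult was 2.28 times the highest calf.

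The calf mean was 909 ± 172 CPM and the adult mean 3178 ± 748 CPM (SD, n = 3 each), a ratio of 3.50. In the edgeR fit over all 663 circRNAs with enough reads, the log2 difference of adult minus calf was 1.89 ± 0.27 (SE). It was the 33rd highest of these values, whose median was 0.00. As background, 19.0% of the 663 passed at an adjusted p of 0.05, 8.60% as higher in adults and 10.4% as lower. All 3 adults lay above all 3 calves in CPM for 16.7% of them, and the ages did not overlap, in either direction, for 39.4%. Since these values chose the gene, nothing is read from its place among them.

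**Figure D2:**
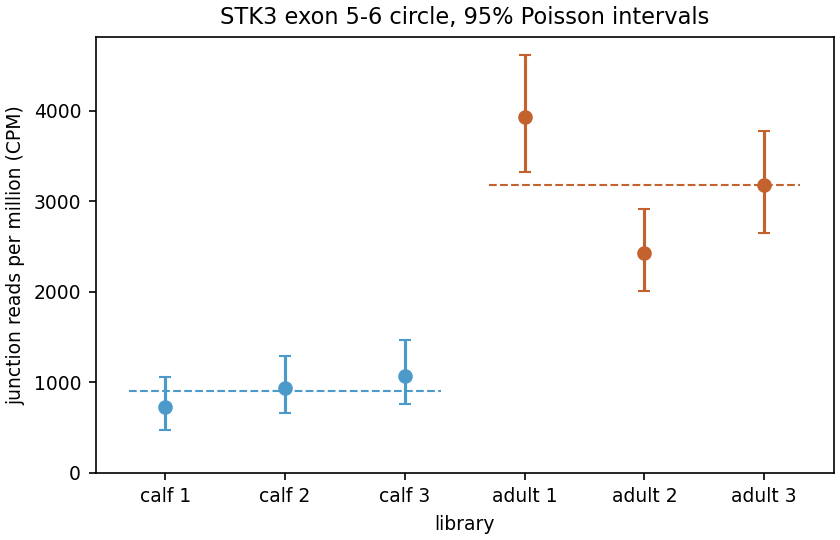
CPM of the main STK3 circle in each of the 6 libraries; bars are exact 95% Poisson intervals of the read count, covering counting error only, and dashed lines are the means of each age. The calf points lie at 725 to 1067 CPM and the adult points at 2431 to 3927 CPM, with no overlap of the intervals between ages.

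Adults also differed among themselves by more than counting error. The exact 95% Poisson interval was 3321 to 4610 CPM in adult 1 and 2007 to 2919 CPM in adult 2, so these did not overlap. The calf intervals overlapped, from 478 to 1056 CPM in calf 1 to 755 to 1464 CPM in calf 3. In each library the circle was among the more abundant ones. It ranked between 20th and 32nd of all circRNAs in adults and between 130th and 203rd in calves, and 45th over all libraries together.

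Libraries differed in reads of other tissues, and these values stand beside the STK3 difference. Circles of 8 of 14 skeletal muscle genes, led by the slow myosin gene MYH7 with 451, came to 681 reads in adult 2, and no other library had more than 3. Circles of 3 of 12 immune genes summed to 53.7 to 505 CPM per calf library and to 1502 to 11509 CPM per adult library, and adult 3 had 457 reads of ADGRE1, a macrophage receptor gene. Most reads of this sum were of ADGRE1, with 600 over all libraries. ITGAM had 0, 2 and 0 calf reads and 13, 12 and 0 adult reads. CD163 had 0, 0 and 2 calf reads and 0, 2 and 3 adult reads. Summed circles of ADGRE1 rose (log2 difference 4.30 ± 0.87 SE, edgeR adjusted p = 0.00582). Without adult 3 its log2 difference was 2.56, and the call was lost with limma-voom (adjusted p = 0.178) and without calf 2 (0.0541). PTPRC, CD68 and CD14 of that list gave no circRNA. Circles of 7 of 8 endothelial genes summed to 1011 to 1102 CPM per calf library and to 1265 to 1395 CPM per adult library. The ages did not overlap, as was so for 33.5% of the 719 tested host genes taken singly. CDH5 of the endothelial list gave none. Its members did not run together: FLT1, a VEGF receptor gene and the only one tested, had 477 to 581 CPM per calf library and 338 to 425 CPM per adult library (edgeR adjusted p = 0.405). The von Willebrand factor gene VWF had 0 calf reads and 10, 18 and 2 adult reads. Of 8 nerve genes 2 gave circles, with 6 reads, all in calf 2, and of 8 epithelial genes 0 did. Without adult 2 the log2 difference of the main circle was 2.10, and without adult 3 it was 1.94. These values do not test the part of other cells. With adult 3 left out, ADGRE1 still had 1160 and 1522 CPM in adults 1 and 2, against 53.7 to 449 CPM in calves. The part of muscle, immune and endothelial cells in the STK3 difference was not tested.

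Fat cell genes were present among the hosts, as the tissue label says. Circles of 7 of 15 adipocyte genes summed to 2729 to 4212 CPM in the calf libraries and to 2558 to 3294 CPM in the adult ones, which overlap. The sum hides genes that ran in opposite directions. PPARG, the regulator of fat cell formation, fell: calves had 51, 48 and 75 reads of its circles and adults 27, 38 and 18 (log2 difference -1.17 ± 0.32 SE, edgeR adjusted p = 0.0278). The PPARG call was lost without calf 3 (adjusted p = 0.0905), adult 1 (0.0760), adult 2 (0.0551) or adult 3 (0.0610). CD36, a fatty acid transporter gene, had 43, 50 and 56 calf reads against 90, 76 and 105 adult reads. In the fit, which leaves out its 1 circle shared with another gene, CD36 did not pass (edgeR adjusted p = 0.0535). ADIPOQ, the adiponectin gene, had 2, 6 and 4 calf reads and 4, 0 and 0 adult reads. PLIN1 had 3, 4 and 8 in calves and 0, 3 and 0 in adults, and LPL 6, 0 and 7 and 0 in each adult. In the other direction, DGAT2 had 0 in each calf and 2, 4 and 0 in adults, and PLIN4 had 2 reads, in adult 1. None of these genes had enough reads to be tested. FABP4, LEP and LIPE gave no circRNA.

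The authors' deposited table of circRNAs higher in adults lists novel_circ_0002653 with a log2 fold change of 1.87, the 25th largest of 33. In the authors' deposited table its mean scaled reads were 34.1 in calves and 126 in adults. The other STK3 circles are in neither the authors' deposited table of higher circRNAs nor that of lower ones.

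Summed over all 7 circles, STK3 gave the calves 29, 43 and 43 reads and the adults 152, 117 and 135. The mean was 1024 ± 221 CPM for calves against 3286 ± 770 CPM for adults (SD, n = 3 each), with a log2 difference of 1.74 ± 0.26 (SE) in the fit over 719 host genes. As background, 12.4% of those host genes passed, 5.84% as higher in adults and 6.54% as lower, and 15.2% had all adults above all calves. Without the main circle the means were 115 ± 53.6 CPM for calves and 107 ± 82.6 CPM for adults (SD, n = 3 each), from 26 reads in all, and the ages overlapped. The main circle took 86.0% to 93.1% of STK3 reads in calves and 94.1% to 98.3% in adults.

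Reads within the span of the main circle that do not cross its join (non-junction reads, as the authors head them) were also more numerous in adults. They numbered 37, 28 and 38 in calves and 77, 91 and 76 in adults. In these unscaled counts, all 3 adults lay above all 3 calves. As background, this was so for 6.36% of the 1070 circRNAs read in every library with a mean of at least 10 such reads. This is the contrast on which STK3 was chosen, so it is given with no test. The rule that defines such a read was not given in the sources used here, and total reads per library were not used here, so these counts are not scaled. The labels' protocols describe RNase R, an enzyme that digests linear RNA, without saying which samples it was used on. These reads can come from the circle itself or from linear STK3 RNA.

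The share of junction reads among junction and non-junction reads of the main circle was 42.2%, 56.9% and 50.0% in calves 1 to 3. In adults 1 to 3 it was 65.9%, 55.8% and 62.6%. Adults were higher in 8 of 9 adult-calf pairs, and calf 2 lay above adult 2. The exact 95% binomial interval was widest in calf 1, from 29.9% to 55.2%, and in adult 1 it ran from 59.4% to 72.1%. The means were 49.7 ± 7.37% and 61.4 ± 5.14% (SD, n = 3 each), so they differed by 11.7 percentage points.

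For comparison, the median share over the 1192 circRNAs read in all 6 libraries lay between 5.53%, in calf 1, and 10%, in adult 1. The median age difference of these circRNAs was 0.00 percentage points, and 3.52% of them had a larger one than the STK3 circle. The share contains the junction reads on whose age difference STK3 was chosen, so nothing is read from this place. Most of these circRNAs also had lower shares, so differences in percentage points are not on an equal footing. The mean share of the STK3 circle exceeded that of 89.3% of them. Longer spans leave more room for non-junction reads, so circles of similar length were also set beside it. Among the 210 of these circRNAs with a spliced length of 419 to 1676 bases, the median share was 21.6%, with quartiles of 7.77% and 51.0%.

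**Figure D3:**
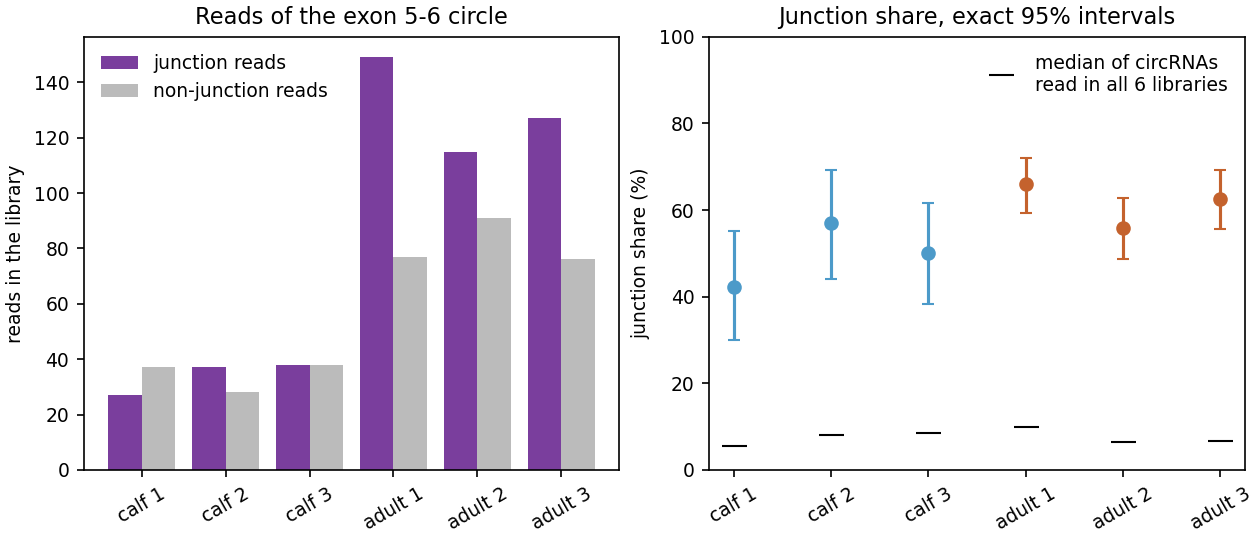
Left, junction and non-junction reads of the main STK3 circle in each library; right, the junction share in percent with exact 95% binomial intervals (blue calf, orange adult) and, as black dashes, the median over 1192 circRNAs read in all libraries. Both kinds of read, as unscaled counts, are higher in every adult, while the shares of calf 2 (56.9%) and adult 2 (55.8%) cross.

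Per kilobase of deposited spliced length, non-junction reads were denser over the main circle than over the minor ones. These lengths differ in make-up. Exons are 333 of the 838 bases of the main circle, while the listed parts of the minor circles are mostly or wholly intron. The length of novel_circ_0002655, 9934 bases, is intron 7 alone and leaves out 264 bases at the ends of its span. The lengths of novel_circ_0002650 and novel_circ_0002656 also fall short of their spans. The densities and their ratios rest on these unlike lengths, so their order could differ with other lengths. Whether the densities follow exon content was not tested. Over the main circle they came to 33.4 to 45.3 per kilobase in calves and 90.7 to 109 in adults. Over the minor circles they came to 7.05 to 37.7 per kilobase. In each of the 8 cases where a minor circle was read, the density over the main circle in the same library was higher, by 2.54 to 13.0 times. The smallest ratio was that of novel_circ_0002650 in calf 3, whose span, like those of novel_circ_0002651 and novel_circ_0002652, includes the main circle. The largest was that of novel_circ_0002655, over intron 7, in adult 1.

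Within 1 Mb on either side of the STK3 circles lay 20 circRNAs of other or no genes. The nearest before the STK3 circles was 309433 bases away and the nearest after them 360718 bases. Only novel_circ_0002646 of the minus-strand gene ENSBTAG00000012357, which has no symbol in the deposited annotation, had enough reads for the test. Its reads were 21, 24 and 32 in calves and 42, 54 and 43 in adults, with a log2 difference of 0.78 ± 0.28 (SE). It did not pass (edgeR adjusted p = 0.0729). NIPAL2, a gene of the magnesium transporter family, gave 4 circles with at most 7 reads each, RPL30, a ribosomal protein gene, gave 1 and MTDH, the metadherin gene, gave 2.

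STK3 supplied most circRNA reads of the core Hippo cascade in this fat. Of the core reads, STK3 held 72.5%, 64.2% and 63.2% in the calf libraries and 84.9%, 78.0% and 88.8% in the adult ones. The other 7 core genes had 137 junction reads in all. The higher adult shares contain the age difference on which STK3 was chosen. A junction read marks 1 join whatever the length of the circle, so these counts carry no length term. The paralog STK4 had 0, 4 and 6 calf reads and 2, 3 and 4 adult reads, which overlap. The scaffold gene SAV1 had 0, 4 and 0 in calves and 6, 7 and 3 in adults. LATS1 had 3, 6 and 2 in calves and 9, 12 and 0 in adults, so the ages overlap.

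The kinase gene LATS2 gave 1 circle, the most read of the core after STK3, with 8, 10 and 15 reads in calves and 8, 11 and 7 in adults. NF2, which codes for the upstream activator merlin, had 2 reads in calf 3 and 3 in adult 3. The LATS cofactor gene MOB1B had 2, in adult 1, and MOB1A gave no circRNA. None of these 7 had enough reads to be tested, so whether they differ between ages was not detectable at this depth.

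**Figure D4:**
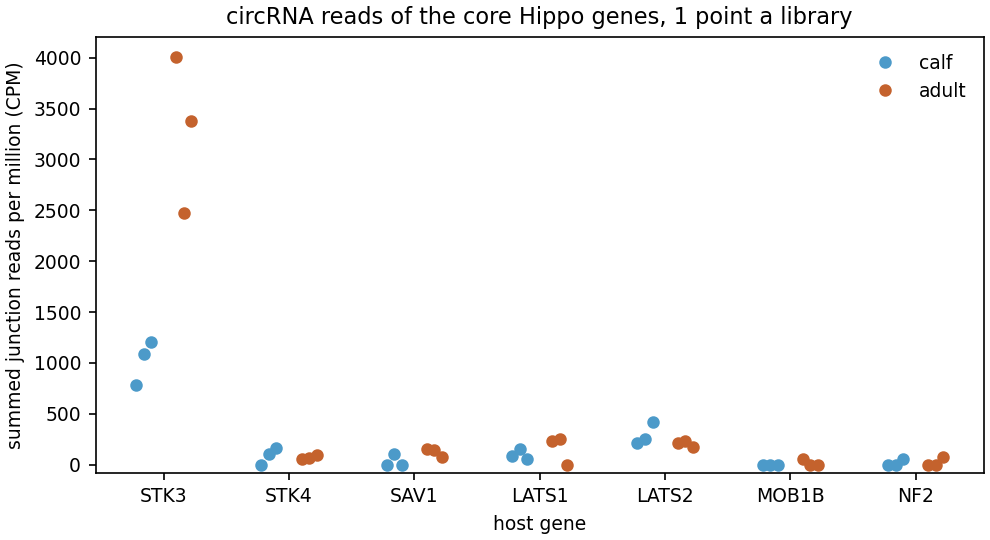
Summed circRNA level (CPM) of each core Hippo gene that gave a circRNA, 1 point per library (blue calf, orange adult). STK3 lies at 779 to 1207 CPM in calves and 2474 to 4006 CPM in adults, and the next highest value, LATS2 in calf 3, is 421 CPM.

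Beyond the core, 3 lists covered inputs to the cascade, the STRIPAK phosphatase complex that removes phosphate from STK3 and STK4, and the YAP and TAZ output. With the core they held 99 genes other than STK3, of which 40 gave 101 circRNAs with 1333 reads. Only 4 host genes, all inputs, could be tested, and 0 passed edgeR's quasi-likelihood test, against 12.4% of all host genes tested. With 4 genes, a count of 0 does not set the lists apart from that share. DESeq2 and limma-voom also called 0 of them, and 1 had an unadjusted p under 0.05. Their median log2 difference was -0.45, against 0.01 over the 719 host genes.

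That 1 gene was PTPN12, which codes for a cytoplasmic tyrosine phosphatase. Calves had 34, 27 and 34 of its reads, adults 12, 23 and 17 (log2 difference -0.97 ± 0.32 SE, edgeR adjusted p = 0.0645). Every adult lay below every calf, while 33.5% of the host genes had ages that did not overlap. Its main circle, novel_circ_0010484, named after its values were seen, fell. It averaged 823 ± 136 CPM in calves against 324 ± 53.1 CPM in adults (SD, n = 3 each; log2 difference -1.24 ± 0.32 SE, edgeR adjusted p = 0.0178). That call was lost in 7 of 13 alternatives: with DESeq2 (adjusted p = 0.101), without a filter (0.202), with the replicate block (0.0705), and without calf 1 (0.0672), calf 2 (0.0504), calf 3 (0.0596) or adult 1 (0.0647).

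The polarity kinase gene MARK3, with 254 reads the most read of these lists, averaged 1266 ± 80.1 CPM in calves against 881 ± 309 CPM in adults (SD, n = 3 each, edgeR adjusted p = 0.361). Its adult values, 527, 1015 and 1101 CPM, all lay below the lowest calf, at 1188 CPM. Of all tested host genes, 33.5% had ages that did not overlap. The giant cadherin gene FAT1 averaged 836 ± 189 and 978 ± 441 CPM in that order (edgeR adjusted p = 0.64), and the scaffold gene DLG1 375 ± 66.1 and 258 ± 105 CPM (edgeR adjusted p = 0.578). For FAT1 and DLG1 the ages overlapped. Of the STRIPAK list 4 of 19 genes gave circRNAs, led by STRN3, a striatin gene, with 6, 6 and 9 calf reads and 5, 6 and 5 adult reads. Of the YAP and TAZ list 6 of 23 did. The ubiquitin ligase gene ITCH had 30 reads in all, TEAD1, a DNA-binding partner of YAP1, had 16 and WWTR1 had 4, while YAP1 gave no circRNA.

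Among 14 other kinases of the sterile-20 family, to which STK3 belongs, 8 gave circRNAs and 3 were tested. NRK, a kinase gene linked to JNK signalling, fell. Its calf reads were 16, 13 and 16 and its adult reads 0, 0 and 2 (log2 difference -4.34 ± 0.89 SE, edgeR adjusted p = 0.00643). With 2 adult reads the size is uncertain. Pooled and scaled to depth, calves had 25.1 times the adult reads, with an exact 95% counting interval of 6.55 to 213. That interval takes each printed 0 as a true 0, though it can hide a single read. The call was lost without calf 1 (adjusted p = 0.0527), and leaving out adult 3, which holds both adult reads, gave a log2 difference of -6.96.

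SLK, a kinase gene tied to cell migration, was the most read of this family, averaging 2690 ± 451 CPM in calves against 2012 ± 237 CPM in adults (SD, n = 3 each). It did not pass (edgeR adjusted p = 0.347). STK39, whose kinase acts on ion cotransporters, had 11, 15 and 10 calf reads and 3, 3 and 6 adult reads and did not pass either (edgeR adjusted p = 0.0943). The median log2 difference of the 3 tested genes was -1.64, against 0.01 over all host genes tested. With 3 genes this median is the value of STK39 alone, so it does not describe the family. Of the 3 genes 1 passed, against 12.4% of all host genes tested, and 3 genes are too few to set them apart from that share.

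The circles whose levels ran most like the main STK3 circle over the 6 libraries came from VCAN, SAMD4A, APBB2, TAP2 and HERPUD2. Likeness was Pearson's r of log2(CPM + 25) among 662 other tested circRNAs, and all values share the library totals. It is a description over 6 libraries that fall into 2 ages, so a circle that differs between ages scores high whatever else it does. The median r was -0.15, and 35 circles were above 0.9.

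The VCAN circle (novel_circ_0012571, r = 0.978), from the gene of the matrix proteoglycan versican, had 0 reads in each calf and 27, 16 and 14 in adults. The SAMD4A circle (novel_circ_0000514, r = 0.975), from a gene for an RNA-binding repressor, averaged 612 ± 161 CPM in calves against 1863 ± 398 CPM in adults (SD, n = 3 each). The APBB2 circle (novel_circ_0011801, r = 0.975), from a gene for an adaptor that binds the amyloid precursor protein, averaged 497 ± 153 CPM against 1385 ± 247 CPM. The TAP2 circle (novel_circ_0007173, r = 0.967), from a peptide transporter gene of antigen presentation, had 0 in each calf and 43, 40 and 27 in adults. The HERPUD2 circle (novel_circ_0010594, r = 0.965) had 3, 5 and 3 calf reads and 13, 13 and 12 adult reads; its gene codes for a protein with a ubiquitin-like domain. In each of the 5, every adult library lay above every calf library, as in 16.7% of the 663 tested circRNAs. Since r to a circle that separates the ages chose them, nothing is read from this.

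**Figure D5:**
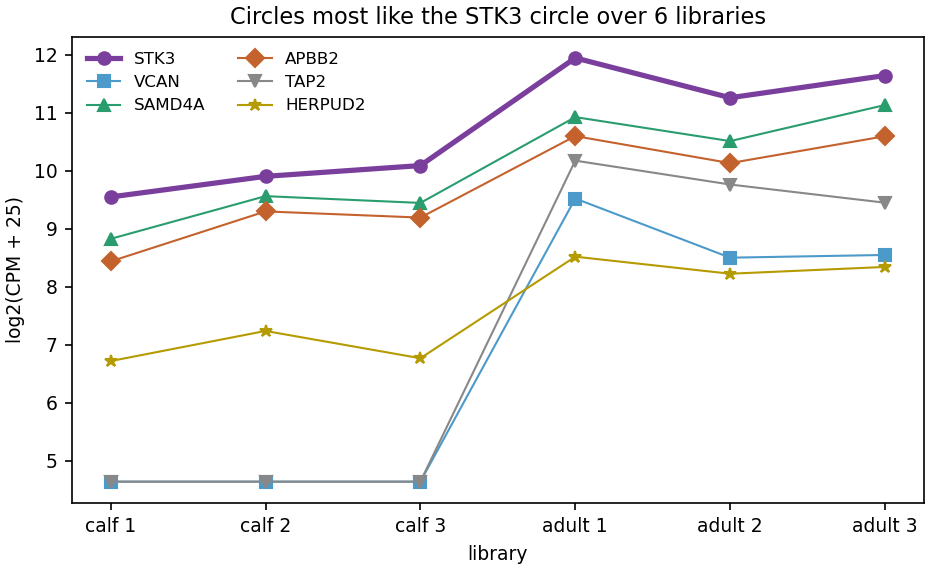
Levels of the main STK3 circle and of the 5 circles with the highest Pearson r to it, as log2(CPM + 25) in each library; lines join libraries only to help the eye. In adults 1 to 3 the VCAN and TAP2 circles had 27, 16 and 14 and 43, 40 and 27 reads, against 0 in each calf; the other circles were read in every library.

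In the authors' deposited enrichment tables, STK3 was counted under several terms. The Hippo signalling pathway held 2 of the authors' listed genes, STK3 and APC, of 151 background genes, with a corrected p-value of 0.595 in the authors' deposited table. The authors' deposited table of gene ontology placed STK3 and LRP5, a Wnt co-receptor gene, under positive regulation of fat cell differentiation, a term with 42 background genes. It also placed STK3, HIPK3 and NRK under the JNK cascade. The corrected p-value was 1 for each of the 245 ontology terms that list STK3 in the authors' deposited table.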

How the data were processed

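Stranded, paired-end libraries were made from RNA freed of ribosomal RNA, per the labels' protocols. Tools named in the submitters' processing notes were Cufflinks, TopHat, TopHat2 2.0.14 and Trim Galore; the circRNA caller was not given in the sources used here. As files, the authors deposited whole junction read counts and CPM (headed TPM, with no length term) per circRNA. The deposited annotation gave lengths, genes and non-junction reads. The authors' deposited comparison held a mean normalised signal and log2 fold changes, and their enrichment tables p-values; no program was named for these.

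Libraries held 35616 to 47298 junction reads, and each column of values was assigned to its library. All circRNAs were fitted with edgeR 4.0.16 (R 4.3.3, quasi-likelihood test, TMM factors 0.9641 to 1.031, filterByExpr, Benjamini-Hochberg adjustment, threshold 0.05). Host genes were sums over the 12150 circRNAs of 1 gene. SEs came from the F statistic. Both steps were run on simulated counts, with 200 features changed by a log2 fold of 2. Of these, 98% were recovered among circRNAs and 99.5% among host genes. False calls were 4.39% and 5.24% of those called, in that order. All features had the same simulated spread, so these rates need not hold in the data. DESeq2 1.42.0, limma-voom (limma 3.58.1), other scalings and filters, a replicate block and fits without each library were alternatives. Intervals cover counting error only, as reads carry no molecular identifiers in these tables.

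Named were every STK3 circRNA, every core Hippo gene, list genes that passed, tested Hippo inputs, and the 5 circles of highest r; other names were chosen after their values were seen. The members and gene lists were chosen with earlier results of these data known.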

Additional observations from a re-analysis of the deposited data

How the results depend on the processing

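The log2 difference of the main STK3 circle kept its direction in 13 of 13 alternatives and was 1.72 to 2.10 in the fits without 1 library. That of the summed STK3 circles was 1.54 to 1.93 without 1 library. STK3 was chosen on the difference of its main circle, so these values are a description and the kept direction is no support. Without the main circle the ratio of mean CPM turned to a log2 value of -0.10, from 26 reads. The age difference in junction share was 7.98 to 15.3 percentage points without 1 library, and 11.4 after centring on each library's median. On the log2 ratio scale with a pseudocount of 0.5 it was 0.69. Of the background counts, the 126 circRNAs that passed became 202 without a filter and 71 to 138 without 1 library, and the 89 host genes became 55 to 123. The number of Hippo genes that passed was 0 in each of the 13 alternatives. Deviations of same-numbered calf and adult libraries from their group means correlated at -0.05, 0.09 and 0.01, and not every library correlated best with its own number. With 3 libraries per age, whether same-numbered libraries share a batch cannot be told from these values. With the replicate block, 56 circRNAs and 101 host genes passed, and the log2 differences of the main and summed STK3 circles were 1.87 and 1.73. With a mean of at least 10 reads NRK was not tested. All 6 minor STK3 circles and most Hippo genes had too few reads to be tested at this depth.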
